A study of Mus musculus with 9 samples.

Results

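The 31 fatty acid oxidation genes described here were read from arrays of mouse glomeruli, the filtering units of the kidney. They were taken as a named list, by matching the gene name of each non-control probe to it. The matching used no measured value, but the list itself was drawn up with earlier results of these data known. They make up 31 of the 24150 genes and other features tested. The arrays hold 48 probes for them, 45 of which passed the filter on dim probes, and every one of the 31 genes kept at least 1 probe. A single probe stood for 19 genes, while 12 had 2 or more, and each gene is given by its brightest kept probe.

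The study set 3 groups of male mice of the BTBR strain side by side at 22 weeks of age, with 3 samples in each. The wild-type vehicle group had intact leptin and ate control food. The ob/ob vehicle group lacked functional leptin, which makes mice of this strain obese and diabetic, and ate the same control food. The ob/ob enarodustat group carried the same mutation and ate food with enarodustat, an inhibitor of the prolyl hydroxylases that mark hypoxia-inducible factors for degradation. Feeding lasted 18 weeks, after which glomeruli were pulled out with magnetic beads and their total RNA was hybridised to one-colour arrays. No group of wild-type mice on enarodustat was analysed here, so a response to the drug could be read in ob/ob mice only. The labels do not say whether a sample was 1 mouse or a pool, so p values measure the spread between these samples, which may be technical.

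Fatty acids enter mitochondria as acyl carnitines. Cpt1a forms the acyl carnitine at the outer membrane, Slc25a20 exchanges it across the inner membrane, and Cpt2 turns it back into acyl-CoA inside. The acyl-CoA is then shortened in repeated rounds of dehydrogenation, hydration, a further dehydrogenation and thiolysis, and its electrons pass through the electron transfer flavoprotein to the respiratory chain. Peroxisomes run a related pathway, and the nuclear receptor Ppara with its coactivators Ppargc1a and Ppargc1b turns on many of these genes. In the kidney the pathway is best known from the proximal tubule, whose cells draw much of their energy from fatty acids, and hypoxia-inducible factors are known to hold it down in several cell types.

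All values are log2 of the processed signal minus the 75th percentile of the array, so 0 is the 75th percentile and 1 unit is a doubling. They compare one gene across arrays and not one gene with another. That percentile lay between 210.4 and 325.3 intensity units, and 62.3% to 68.3% of probes were well above background on each array. No spot for the 31 genes was saturated, and 30 of the 31 genes were well above background on all 9 arrays. The exception was Cyp4a14, which was so on 5 of 9 arrays, all 3 of wild type and 1 of 3 in each ob/ob group. Podocyte markers, which define glomeruli, were all measured (28 of 28), with array medians between 3.25 and 4.66. Proximal tubule markers were measured too, and unevenly. Their median over 32 of 33 markers was 0.02, -0.46 and 2.35 in wild type, -0.79, -0.23 and -2.65 in ob/ob vehicle and -0.70, 1.61 and -0.77 in ob/ob enarodustat, for replicates 1 to 3. Wild-type replicate 3 and enarodustat replicate 2 thus stood high in tubule markers and ob/ob vehicle replicate 3 stood low. In bulk samples, fewer cells of a type and less RNA per cell cannot be told apart.

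The promoters of the 3 carnitine shuttle genes and of Ppargc1a are shown because the changes below centre on them. They come from RefSeq (build GRCm38.p6) and hold the 250 bases before the transcription start, 5′ to 3′ on the strand of the gene. Capitals mark 3 short words found on either strand, namely AGGTCA, a core word of nuclear receptor sites such as those of Ppara, and ACGTG and GCGTG, the core words of hypoxia response elements. Cpt1a is at chr19:3323051-3323300 on the plus strand, Slc25a20 at chr9:108661886-108662135 on the plus strand, Cpt2 at chr4:107923590-107923839 on the minus strand and Ppargc1a at chr5:51567726-51567975 on the minus strand.
Cpt1a: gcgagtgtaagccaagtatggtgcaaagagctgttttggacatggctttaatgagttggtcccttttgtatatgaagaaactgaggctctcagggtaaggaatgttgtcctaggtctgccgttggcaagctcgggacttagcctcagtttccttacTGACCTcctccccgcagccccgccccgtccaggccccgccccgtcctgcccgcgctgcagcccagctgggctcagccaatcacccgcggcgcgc
Slc25a20: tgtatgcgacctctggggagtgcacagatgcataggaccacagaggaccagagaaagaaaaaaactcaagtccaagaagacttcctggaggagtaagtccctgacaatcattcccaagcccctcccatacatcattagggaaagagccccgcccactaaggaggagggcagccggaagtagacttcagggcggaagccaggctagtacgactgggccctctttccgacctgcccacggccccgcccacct
Cpt2: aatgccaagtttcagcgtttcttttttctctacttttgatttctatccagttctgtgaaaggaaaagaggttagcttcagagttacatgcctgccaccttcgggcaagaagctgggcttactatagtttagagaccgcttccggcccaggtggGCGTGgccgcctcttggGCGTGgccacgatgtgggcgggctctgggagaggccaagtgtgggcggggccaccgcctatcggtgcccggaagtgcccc
Ppargc1a: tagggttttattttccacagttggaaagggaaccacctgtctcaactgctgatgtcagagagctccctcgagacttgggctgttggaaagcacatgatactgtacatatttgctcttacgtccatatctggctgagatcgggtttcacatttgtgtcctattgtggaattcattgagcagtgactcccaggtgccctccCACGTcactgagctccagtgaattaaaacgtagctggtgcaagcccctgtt

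Each of the 4 windows reads differently. The Cpt1a window holds AGGTCA once, on its minus strand, with its first base 94 bases before the start. The Cpt2 window holds GCGTG 2 times, 97 and 80 bases before the start. In the Ppargc1a window ACGTG stands once, on the minus strand 51 bases before the start, and the Slc25a20 window holds none of the 3 words. Of the 31 genes, 25 had a window that was searched (26 windows of 300 bases, as Acsl1 has 2), each in full. Windows on chromosome 18, which carries Acaa2 and Ppargc1b, were left out for the 31 genes and kept among all windows. AGGTCA was in 5 of the 26 windows (19.2%, against 16.3% of all 32851 windows), those of Acadm, Acadvl, Cpt1a, Slc27a2 and Ucp3. ACGTG was in 3 windows (11.5% against 19.6%) and GCGTG in 13 (50%, against 32.4%). The longer direct repeat of this word with 1 free base between the copies, the form that Ppara binds with its partner, was searched with 1 free letter in each copy, so it can overlap AGGTCA. It was in 0 of the 26 windows and in 0.381% of all windows. These matches describe letters and not binding.

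The first comparison asks how glomeruli of obese diabetic mice differed from those of wild-type mice. Within the carnitine shuttle, 2 genes differed in opposite directions. Cpt1a, the rate-limiting entry step, was 1.89-fold higher in ob/ob vehicle than in wild type and Cpt2, the last step of the same shuttle, was 1.39-fold lower, and these were the only 2 of the 31 genes called at an adjusted p under 0.05. Over all features 7.55% were called (4.89% higher and 2.66% lower), against 1 of 31 genes higher and 1 of 31 lower here (3.23% each). The median change of the 31 genes was -0.05, and that of all features 0.02.

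Cpt1a read 2.67, 3.11 and 2.49 in wild type, 3.95, 3.51 and 3.57 in ob/ob vehicle and 3.86, 3.65 and 4.25 in ob/ob enarodustat. Each of the 6 ob/ob arrays lay above each wild-type array, and the ob/ob groups overlapped each other. The change from wild type to ob/ob vehicle was 0.92 ± 0.22 (log2 change ± SE, n = 3 a group, adjusted p = 0.0387 by limma with Benjamini-Hochberg adjustment). Cpt2 read 3.11, 3.10 and 3.25 in wild type, 2.71, 2.76 and 2.55 in ob/ob vehicle and 2.63, 2.70 and 2.89 in ob/ob enarodustat. All ob/ob arrays lay below all wild-type arrays. Its change was -0.48 ± 0.12 (adjusted p = 0.0446 by limma), and a second, dimmer Cpt2 probe had a change of -0.77 ± 0.29 in the same direction.

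Both calls sat close to the threshold. Cpt1a was no longer called once wild-type replicate 1 (adjusted p = 0.0838 by limma) or 3 (0.115) was left out, nor without ob/ob vehicle replicate 1 (0.125), replicate 2 (0.0687) or replicate 3 (0.0798), nor without enarodustat replicate 1 (0.0616), and its change without single arrays stayed between 0.78 and 1.10. The Cpt2 call was lost without any of the arrays other than enarodustat replicate 3, with adjusted p between 0.0605 and 0.145 and a change between -0.52 and -0.41. When the average proximal tubule marker level entered the fit as a covariate (the tubule covariate below), neither was called. The changes were then 0.69 ± 0.24 for Cpt1a and -0.40 ± 0.14 for Cpt2 (adjusted p = 0.208 and 0.215 by limma).

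Between these enzymes acts the carnitine-acylcarnitine carrier Slc25a20, which read -3.03, -2.98 and -3.47 in wild type, -2.01, -2.60 and -1.96 in ob/ob vehicle and -1.53, -2.43 and -2.27 in ob/ob enarodustat. Wild type was lowest without overlap. The difference of 0.97 ± 0.27 between ob/ob vehicle and wild type missed the threshold (adjusted p = 0.0688 by limma). Crat, which makes acetylcarnitine, differed by 0.02 (95% interval -0.24 to 0.27), although its second probe had the opposite sign at -0.57.

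**Figure D1:**
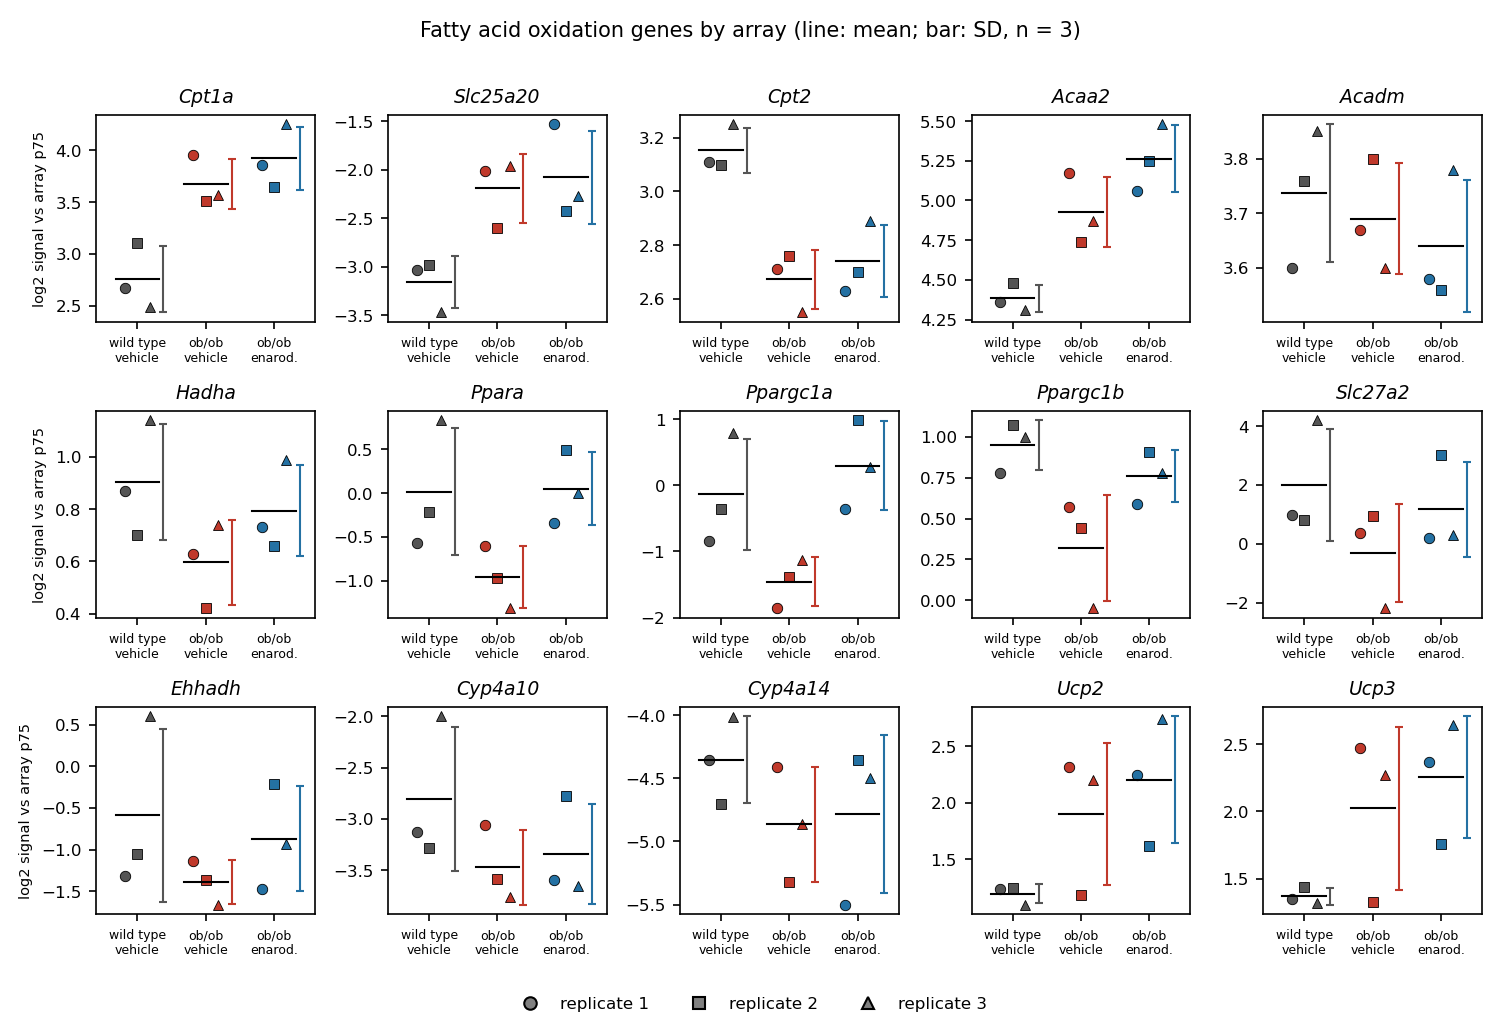
Log2 signal minus the array's 75th percentile for 15 of the 31 genes, 1 point an array with its replicate number as the symbol, a line at each group mean and a bar of 1 SD to its right (n = 3). Each panel has its own scale. Wild-type arrays lie apart from all 6 ob/ob arrays for Cpt1a, Slc25a20, Cpt2 and Acaa2, ob/ob vehicle is the lowest group for Ppara, Ppargc1a and Ppargc1b, and wild-type replicate 3 and enarodustat replicate 2 stand high for Slc27a2 and Ehhadh.

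The acyl-CoA dehydrogenases, which take the first step of each round for chains of different length, differed little. None of the 4 was called. Acadm, the medium-chain enzyme, read 3.60, 3.76 and 3.85 in wild type, 3.67, 3.80 and 3.60 in ob/ob vehicle and 3.58, 3.56 and 3.78 in ob/ob enarodustat. All 3 groups overlapped, and the difference between ob/ob vehicle and wild type was -0.05 (95% interval -0.32 to 0.22). For the long-chain and very-long-chain enzymes Acadl and Acadvl it was 0.28 (-0.03 to 0.60) and 0.09 (-0.21 to 0.39), and for the short-chain enzyme Acads -0.19 (-0.77 to 0.39).

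Of the enzymes that complete the round, Acaa2, the mitochondrial thiolase, stood out by its separation. It read 4.36, 4.48 and 4.31 in wild type, 5.17, 4.74 and 4.87 in ob/ob vehicle and 5.06, 5.25 and 5.48 in ob/ob enarodustat. Wild type lay below both ob/ob groups, and the difference of 0.54 ± 0.15 between ob/ob vehicle and wild type missed the threshold (adjusted p = 0.0706 by limma). Hadha and Hadhb encode the alpha and beta subunits of the trifunctional protein, which carries out the later steps for long chains. Hadha read 0.87, 0.70 and 1.14 in wild type, 0.63, 0.42 and 0.74 in ob/ob vehicle and 0.73, 0.66 and 0.99 in ob/ob enarodustat, so the groups overlapped throughout. Its difference between ob/ob vehicle and wild type was -0.30 (95% interval -0.66 to 0.05), that of Hadhb was 0.11 (-0.13 to 0.35) with 3 probes from -0.29 to 0.11, and that of the short-chain dehydrogenase Hadh was -0.23 (-0.96 to 0.50).

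The electron transfer flavoprotein subunits Etfa and Etfb and its oxidoreductase Etfdh lay between -0.15 and 0.07 in this comparison, none called, and the 2 probes of Etfdh disagreed in sign. Of the enzymes that let unsaturated chains through, the isomerase Ech1 and the reductase Decr1 were higher in ob/ob vehicle without overlap, by 0.35 ± 0.12 and 0.24 ± 0.13, and the isomerase Eci1 differed by -0.14 ± 0.11, none of them called. In all, 5 genes were higher without overlap (Acaa2, Cpt1a, Decr1, Ech1 and Slc25a20) and 4 lower (Cpt2, Ppara, Ppargc1a and Ppargc1b), that is 16.1% and 12.9% of the 31, against 17.8% and 12.9% of all features, or 29% against 30.7% in both directions.

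The 4 genes lower without overlap included all 3 transcriptional regulators. Ppargc1a, the coactivator known for its part in mitochondrial biogenesis, read -0.84, -0.36 and 0.79 in wild type, -1.86, -1.38 and -1.13 in ob/ob vehicle and -0.36, 0.98 and 0.27 in ob/ob enarodustat. Ppara, the receptor activated by fatty acids, read -0.57, -0.21 and 0.83, then -0.60, -0.97 and -1.31, then -0.34, 0.49 and 0.00 in the same order of groups. Ppargc1b, the related coactivator, read 0.78, 1.07 and 1.00, then 0.57, 0.44 and -0.05, then 0.59, 0.91 and 0.78. Ob/ob vehicle was the lowest group for each of the 3, and the wild-type and enarodustat arrays overlapped.

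None of these 3 differences between ob/ob vehicle and wild type was called. They were -1.32 ± 0.46 for Ppargc1a, -0.98 ± 0.37 for Ppara and -0.63 ± 0.18 for Ppargc1b (adjusted p = 0.124, 0.155 and 0.0693 by limma). The second probes of Ppargc1a (-1.44) and Ppara (-0.97) lay close to the first, and that of Ppargc1b was at -0.18. The wild-type array with the highest Ppargc1a and Ppara values was replicate 3, the one high in tubule markers. Without it the differences were -0.86, -0.57 and -0.60, and with the tubule covariate -0.70, -0.33 and -0.44, none called.

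The uncoupling proteins Ucp2 and Ucp3 are carriers of the inner mitochondrial membrane, and Ucp3 is best known from muscle and brown fat. Their probes are shown because their arrays ran alike. They are the probe sequences of the deposited files, at chr7:107647809-107647868 (Ucp2) and chr7:107630399-107630458 (Ucp3) in build mm9, and RefSeq places no other gene between the 2 genes.
Ucp2: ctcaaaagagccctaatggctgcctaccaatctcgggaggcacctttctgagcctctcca
Ucp3: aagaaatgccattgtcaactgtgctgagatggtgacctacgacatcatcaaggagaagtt

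The longest run of bases that these 60-base probes share is 5 on the same strand and 6 on opposite strands. Ucp2 read 1.24, 1.25 and 1.10 in wild type, 2.32, 1.18 and 2.20 in ob/ob vehicle and 2.25, 1.62 and 2.74 in ob/ob enarodustat. Ucp3 read 1.35, 1.44 and 1.32, then 2.47, 1.33 and 2.27, then 2.37, 1.76 and 2.64. Replicate 2 was the lowest array of both ob/ob groups for both genes, and in ob/ob vehicle it lay within the wild-type range. The differences between ob/ob vehicle and wild type, 0.71 ± 0.34 and 0.66 ± 0.31, were not called. Without ob/ob vehicle replicate 2 the Ucp2 difference was 1.07, again not called. Whether the Ucp3 probe also takes up Ucp2 transcripts was not tested.

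The remaining genes act at the edges of the pathway, and none was called in the fit of the 3 groups. Slc27a2, which brings in and activates very long chains, had the widest range of the 31 genes at 6.40 log2 units. It read 0.98, 0.82 and 4.20 in wild type, 0.36, 0.93 and -2.20 in ob/ob vehicle and 0.19, 3.03 and 0.29 in ob/ob enarodustat. High values fell on wild-type replicate 3 and enarodustat replicate 2 and the low value on ob/ob vehicle replicate 3, the same arrays that stood high and low in tubule markers. Its difference of -2.30 ± 1.19 between ob/ob vehicle and wild type was 0.13 ± 0.22 with the tubule covariate.

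Ehhadh, the bifunctional enzyme of peroxisomes, read -1.32, -1.05 and 0.60 in wild type, -1.14, -1.36 and -1.66 in ob/ob vehicle and -1.47, -0.21 and -0.93 in ob/ob enarodustat. Its difference between ob/ob vehicle and wild type was -0.80 ± 0.50, and 0.10 with the tubule covariate. Cyp4a10, an omega hydroxylase induced by Ppara, read -3.13, -3.28 and -2.00, then -3.06, -3.59 and -3.76, then -3.60, -2.78 and -3.65. Its relative Cyp4a14 read -4.35, -4.70 and -4.01, then -4.41, -5.32 and -4.86, then -5.50, -4.35 and -4.50, much of it at the edge of background. Groups overlapped for all 3 genes, and wild-type replicate 3 was again the highest wild-type array. Acsl1, which activates long chains, the thioesterases Acot1 and Acot2 and the peroxisomal thiolase Acaa1a differed between ob/ob vehicle and wild type by -0.17 to 0.08, and the 2 probes of Acsl1 disagreed in sign (-0.20 and 0.08). Cyp4a10 and Cyp4a14, Acot1 and Acot2, and Acaa1a have near-identical relatives, and how far their probes tell these apart was not tested.

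**Figure D2:**
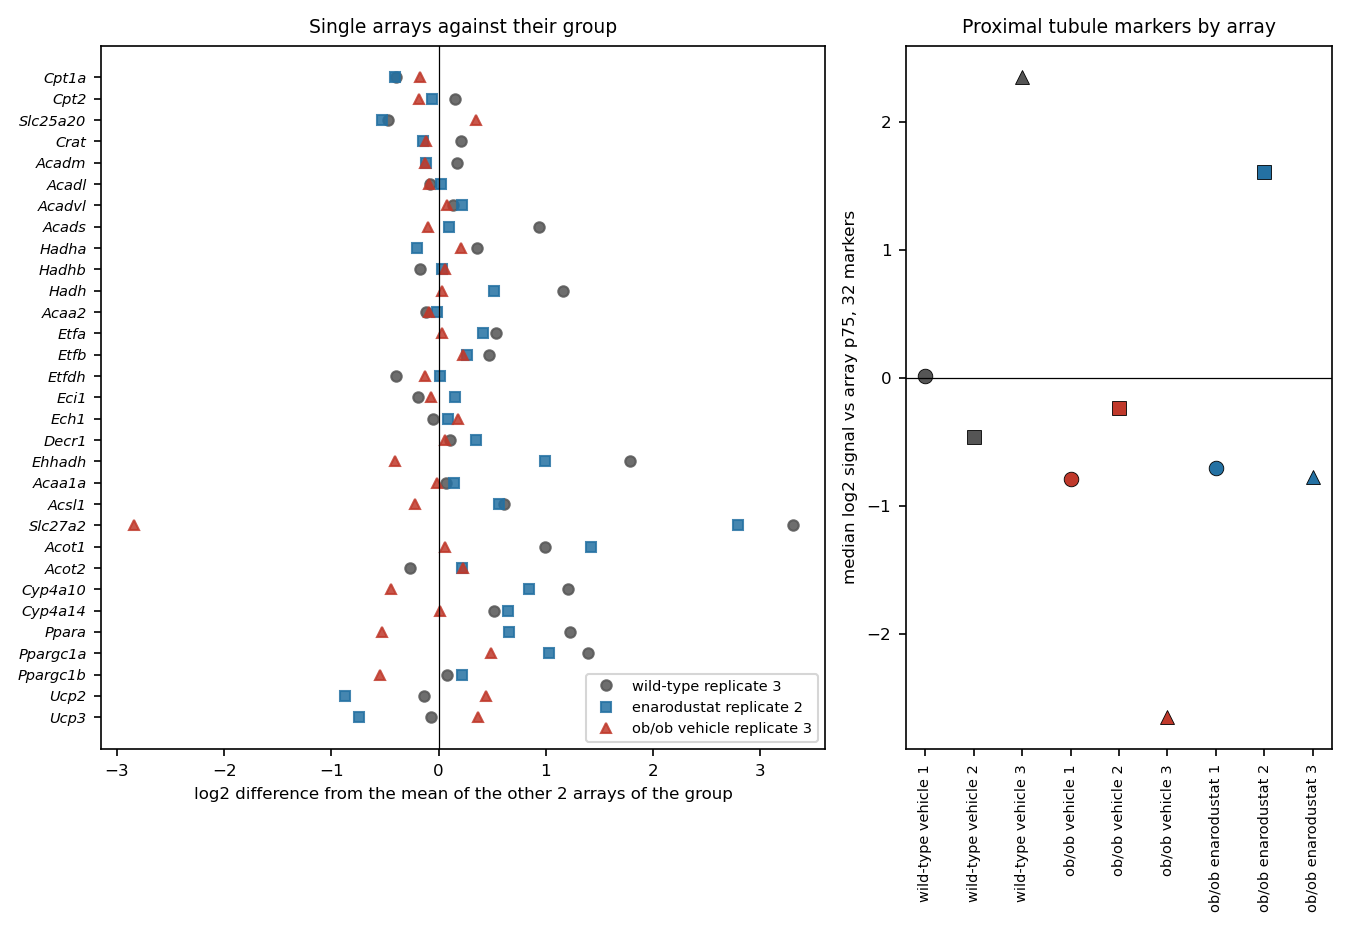
Left, the log2 difference of wild-type replicate 3, enarodustat replicate 2 and ob/ob vehicle replicate 3 from the mean of the other 2 arrays of their group, for each of the 31 genes. Right, the median log2 signal of 32 proximal tubule markers on each array, with wild-type replicate 3 at 2.35, enarodustat replicate 2 at 1.61 and ob/ob vehicle replicate 3 at -2.65, and Slc27a2 has the widest offsets on the left.

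These arrays stood apart for more genes than Slc27a2. Wild-type replicate 3 was the highest wild-type array for 19 of 31 genes (61.3%, against 31.8% of all features), and enarodustat replicate 2 was the highest of its group for 17 (54.8%, against 33.4%). Both held for 15 genes, among them Acads, Hadh, Etfa, Etfb, Ppara and Ppargc1a. Ob/ob vehicle replicate 3 was the lowest of its group for 12 (38.7%, against 33.2%). Wild-type replicate 3 exceeded the mean of the other wild-type arrays by 3.30 for Slc27a2, 1.78 for Ehhadh, 1.39 for Ppargc1a, 1.22 for Ppara and 1.16 for Hadh. Cpt1a and Slc25a20 ran the other way, with differences of -0.40 and -0.47 for wild-type replicate 3.

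The group means of the proximal tubule markers differed, but the array medians of the groups overlapped. Ob/ob vehicle replicate 2 (-0.23) lay above wild-type replicate 2 (-0.46) and above enarodustat replicates 1 (-0.70) and 3 (-0.77). By group means, all 32 markers tested were lower in ob/ob vehicle than in wild type. All 32 were higher in ob/ob enarodustat than in ob/ob vehicle, and none was called in either. The markers share the same arrays, so their signs are not independent. Their summed linear level ran from 56.8 to 646 in wild type, 9.82 to 54.2 in ob/ob vehicle and 33.8 to 242 in ob/ob enarodustat. Of 33 markers, 32 had a probe above background in at least 1 whole group, and Slc34a1, the phosphate carrier of the proximal tubule, read -2.49 to 4.98 and was well above background on all 9 arrays. With their mean as a covariate, 21 of 31 oxidation genes were above 0 in ob/ob vehicle against wild type in place of 14, and none was called, beside 634 features called in all.

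**Figure D3:**
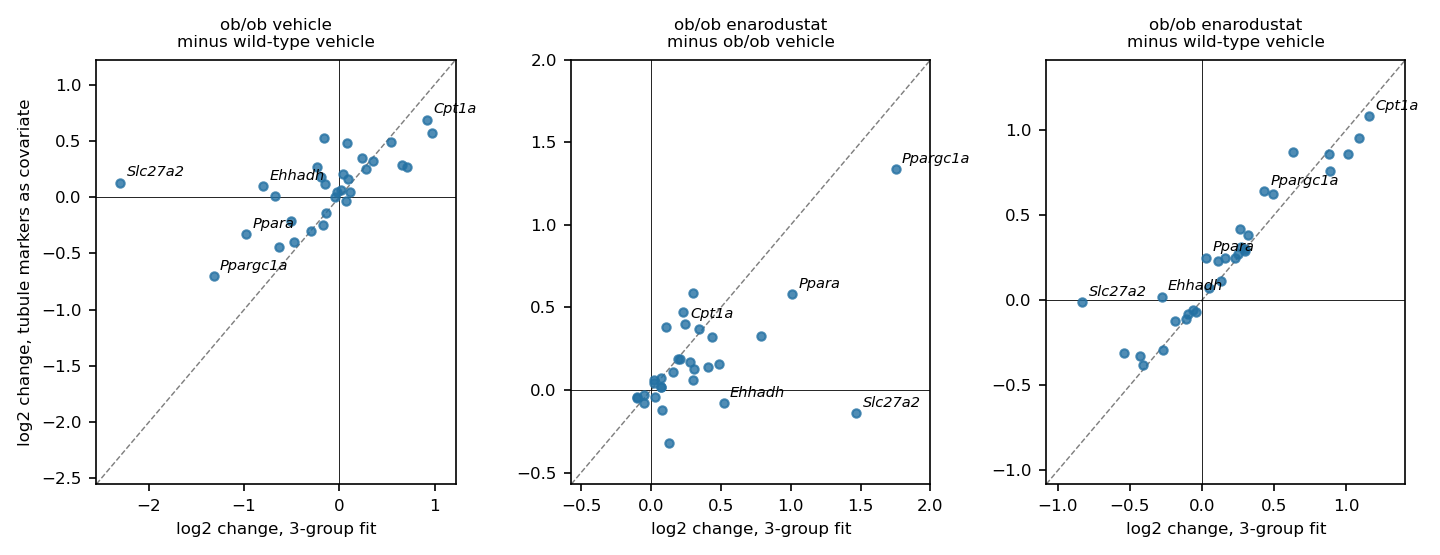
Log2 change of each of the 31 genes in the fit of the 3 groups (x) against that with the average proximal tubule marker level as a covariate (y). There is 1 panel a comparison, and the dashed line marks where both are equal. In the left panel Slc27a2 moves from -2.30 to 0.13 and Ppargc1a from -1.32 to -0.70, and Cpt1a stays near the line at 0.92 and 0.69.

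The second comparison asks what enarodustat did in ob/ob mice. No oxidation gene was called, and no feature of the array was (0% of 24150), while 1692 features (7.01%) had an unadjusted p under 0.05 by limma. Among the 31 genes 3 had such a p, the 3 transcriptional regulators. Ppargc1a was 1.75 ± 0.46 higher with enarodustat (95% interval 0.71 to 2.79, adjusted p = 0.681 by limma), Ppara 1.01 ± 0.37 higher (0.16 to 1.85, 0.708) and Ppargc1b 0.44 ± 0.18 higher (0.04 to 0.85, 0.708). In each case the 3 enarodustat arrays lay above the 3 ob/ob vehicle arrays.

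The second probes of Ppargc1a and Ppara gave 1.62 and 0.91, and that of Ppargc1b gave 0.00. Without enarodustat replicate 2, the treated array high in tubule markers, the differences were 1.41, 0.79 and 0.37, none called. With the tubule covariate they were 1.34, 0.58 and 0.32, none called. That covariate held proximal tubule markers only. Distal nephron markers had array medians of 0.15, 1.60 and 0.08 with enarodustat and -3.07, -0.95 and -0.62 in ob/ob vehicle, for replicates 1 to 3. The part of distal nephron RNA in these differences was not tested. The comparisons of ob/ob vehicle with wild type and of enarodustat with ob/ob vehicle share the ob/ob vehicle arrays, so their values are not independent. Between ob/ob enarodustat and wild type, a comparison without those arrays, Ppargc1a differed by 0.43 (95% interval -0.61 to 1.47), Ppara by 0.03 (-0.81 to 0.88) and Ppargc1b by -0.19 (-0.59 to 0.22).

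Groups did not overlap for 6 genes that were higher with enarodustat (Crat, Etfa, Hadh, Ppara, Ppargc1a and Ppargc1b, 19.4% of the 31, against 6.5% of all features) and for 1 that was lower (Etfdh, 3.23% against 9.49%), or 22.6% against 16% in both directions. In all, 27 of 31 genes lay above 0, with a median of 0.21, where the median of all features was -0.03. With the tubule covariate 22 of 31 lay above 0 with a median of 0.11. The genes called against wild type were not called here. Cpt1a differed by 0.24 (95% interval -0.25 to 0.74), Slc25a20 by 0.11 (-0.51 to 0.74), Cpt2 by 0.07 (-0.20 to 0.33) and Acaa2 by 0.34 (-0.01 to 0.69). These intervals leave room for a rise of Cpt1a of up to 0.74 log2 units.

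The intervals of the spiral enzymes spanned 0. Acadm differed by -0.05 (-0.32 to 0.22), Hadha by 0.19 (-0.16 to 0.55) and Hadhb by 0.02 (-0.23 to 0.26), while Hadh was 0.49 higher (-0.24 to 1.21). For Slc27a2 (1.47 ± 1.19), Acot1 (0.79 ± 0.44) and Ehhadh (0.52 ± 0.50), enarodustat replicate 2 was the highest treated array. With the tubule covariate Slc27a2 differed by -0.14 and Ehhadh by -0.08. Cyp4a10 and Cyp4a14 differed by 0.13 ± 0.38 and 0.08 ± 0.35, and both signs turned under the covariate. Ucp2 differed by 0.30 ± 0.34, and by -0.06 without ob/ob vehicle replicate 2.

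**Figure D4:**
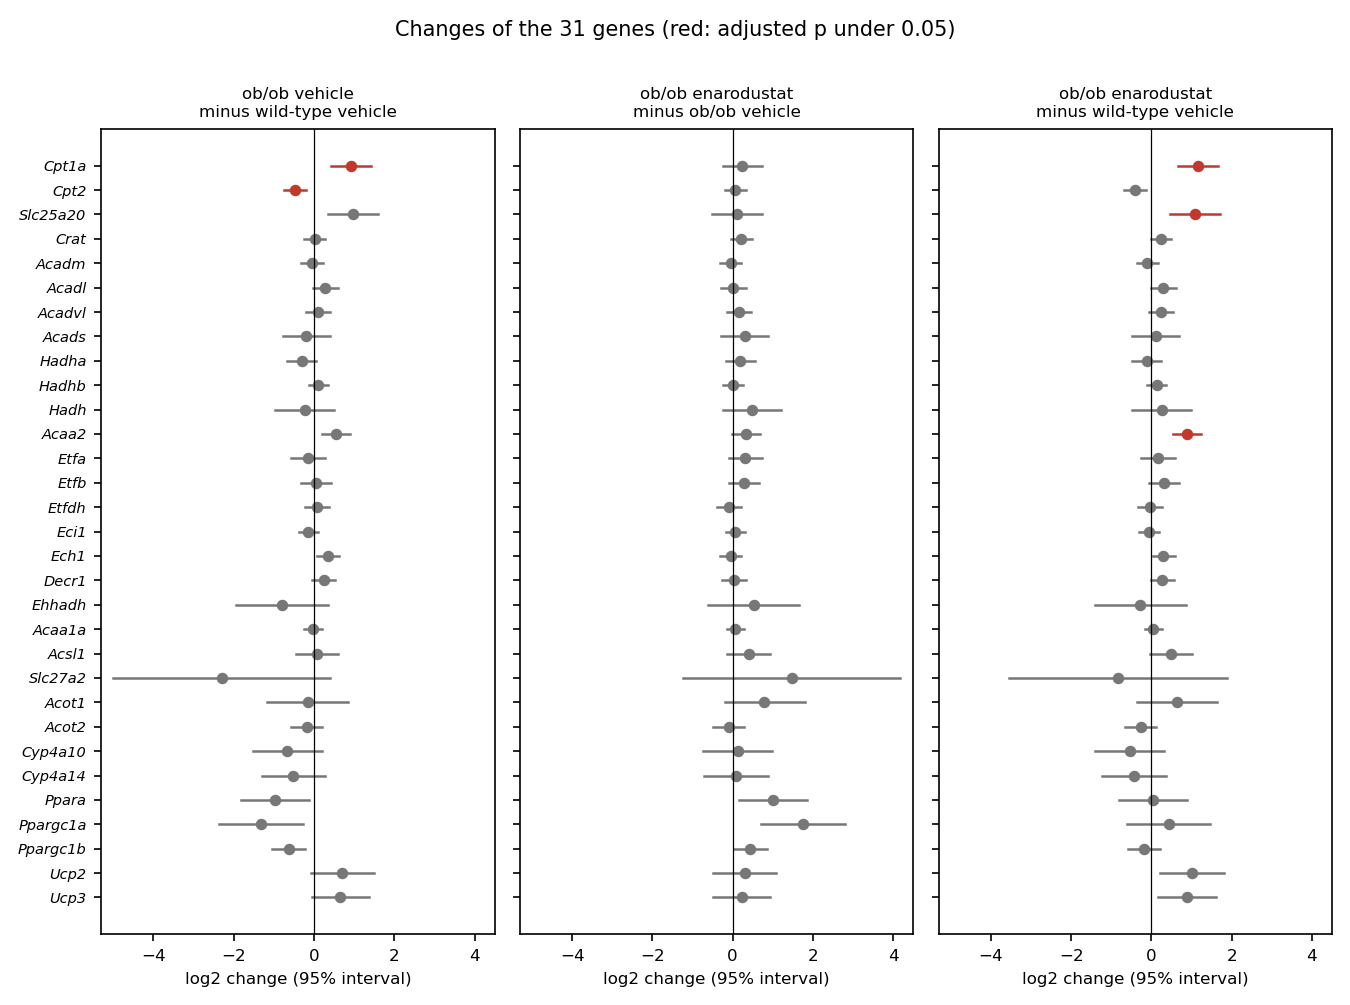
Log2 change with its 95% interval for each of the 31 genes in the 3 comparisons, in red where the adjusted p was under 0.05. Red points are Cpt1a and Cpt2 on the left, none in the middle, and Cpt1a, Slc25a20 and Acaa2 on the right, and all 3 regulators lie below 0 on the left and above 0 in the middle.

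The third comparison sets treated ob/ob mice against wild type. It called 3 genes, all higher, 9.68% of the 31, where 10.2% of all features were called (6.1% higher and 4.09% lower). Acaa2 was higher by 0.88 ± 0.15 (adjusted p = 0.0113 by limma, 1.84-fold), Cpt1a by 1.16 ± 0.22 (0.0138, 2.24-fold) and Slc25a20 by 1.09 ± 0.27 (0.0411, 2.12-fold). For each of them the values above show all 3 treated arrays over all 3 wild-type arrays. Cpt1a was called under all 23 alternative settings, including each array left out in turn (largest adjusted p = 0.0465 by limma). The slide as a block gave the same values as leaving out enarodustat replicate 3, so that fit is counted again among the 23.

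The Acaa2 call held in 22 of the 23 settings and was lost when wild-type replicate 3 and enarodustat replicate 2 were both left out (adjusted p = 0.0671 by limma). The Slc25a20 call held in 9 of the 23 settings. It was lost with quantile normalization (adjusted p = 0.0511 by limma), the array median (0.0539), no filter on dim probes (0.0922), only the 2 groups compared (0.0631), the slide as a block (0.0783) and with wild-type replicate 3 and enarodustat replicate 2 both left out (0.0922). It was also lost without any single array other than ob/ob vehicle replicate 2 or enarodustat replicate 2, with adjusted p from 0.0520 to 0.104, and with background correction by normexp its change was 0.47 (0.0588). Cpt2 differed by -0.41 ± 0.12, without overlap and without a call (0.0620).

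Without overlap, 8 genes were higher in treated ob/ob than in wild type (25.8%, against 16.8% of all features) and 1 was lower (3.23% against 14%), which makes 29% against 30.8% in both directions. The higher ones were Acaa2, Acadl, Cpt1a, Decr1, Ech1, Slc25a20, Ucp2 and Ucp3, and the lower one was Cpt2. Ucp2 was 1.01 ± 0.34 higher and Ucp3 0.89 ± 0.31 higher (adjusted p = 0.103 and 0.113 by limma). The median change of the 31 genes was 0.16, and that of all features -0.01. With the tubule covariate 4 genes were called, the same 3 and Acsl1 (0.62 ± 0.14, adjusted p = 0.0325 by limma), which had missed the threshold without it (0.49 ± 0.23). Among all features 2321 were called with the covariate, against 2460 without it.

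Genes next to the pathway held further calls. They come from lists chosen with earlier results of these data known, and describe the surroundings of the 31 genes. In ob/ob vehicle against wild type, 6 of 29 tested regulators and PPAR targets were called higher and 1 lower. Over all features 4.89% were called higher and 2.66% lower there, the shares to set beside each list count of that comparison. Angptl4, a secreted inhibitor of lipoprotein lipase, rose by 3.18 ± 0.40, Pdk4, which holds pyruvate out of oxidation, by 2.37 ± 0.44, the receptor gene Pparg by 1.97 ± 0.30, and the lipid droplet coat gene Plin2 by 1.29 ± 0.14 (adjusted p = 0.00391, 0.0154, 0.00682 and 0.00282 by limma). Plin4 rose by 1.13 and the sterol receptor gene Nr1h3 by 0.62, and Pdk2, a further pyruvate dehydrogenase kinase, fell by 1.00.

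Fabp4, a fatty acid carrier of the cytosol, was 7.54-fold higher. It read 2.53, 2.83 and 1.92 in wild type, 6.03, 4.33 and 5.66 in ob/ob vehicle and 5.99, 5.47 and 6.03 in ob/ob enarodustat, with a gap between wild type and both ob/ob groups (2.91 ± 0.43, adjusted p = 0.00638 by limma). Its relative Fabp5 (0.85) and the thioesterase Acot9 (0.51) were the other genes called higher of 23 tested for uptake and activation.

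Of 17 other mitochondrial oxidation enzymes 1 was called, Cpt1c, a relative of Cpt1a best known from neurons, at 1.09 ± 0.27. None of 22 other peroxisomal genes was. The calls of Angptl4, Pparg, Plin2, Fabp4, Fabp5 and Pdk2 held without each array in turn. Those of Pdk4 (2 arrays), Nr1h3 and Plin4 (4 arrays each), Acot9 (7) and Cpt1c (8) were lost without that many of the 9, with adjusted p of at most 0.0605, 0.0887, 0.0745, 0.126 and 0.145. For Pdk4 these were wild-type replicate 3 and ob/ob vehicle replicate 1, for Nr1h3 wild-type replicates 1 and 3 and ob/ob vehicle replicates 1 and 3, and for Plin4 wild-type replicates 1 and 2 and ob/ob vehicle replicates 1 and 3. Acot9 kept its call only without enarodustat replicate 2 or 3, and Cpt1c only without wild-type replicate 1. With the tubule covariate Pdk2 (adjusted p = 0.0519 by limma), Plin4 (0.072), Pdk4 (0.0972), Nr1h3 (0.134), Acot9 (0.195) and Cpt1c (0.244) were not called, and Angptl4, Pparg, Plin2, Fabp4 and Fabp5 were.

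Against the same wild-type arrays, treated ob/ob glomeruli had 6 of these regulators and targets called higher and 1 lower, beside 6.1% and 4.09% of all features. Fabp4 (3.40 ± 0.43), Angptl4 (3.02 ± 0.40), Pdk4 (2.36 ± 0.44), Pparg (1.98 ± 0.30) and Plin2 (1.22 ± 0.14) were among the genes called higher, and the Pdk4 call was lost without enarodustat replicate 3 (adjusted p = 0.0503 by limma). Nr1h3, also among those 6, lost its call without wild-type replicate 1 or enarodustat replicate 1 or 2 (at most 0.0598). Pdk2, the gene called lower (-0.66), lost it with the tubule covariate (0.0517) and without any wild-type array, ob/ob vehicle replicate 1 or enarodustat replicate 1 or 2 (at most 0.0938). A pair of acyl-CoA synthetases was called lower there, Acsl6 (-1.83 ± 0.41) and Acsl4 (-0.52 ± 0.14). Acsl6 was not called once replicate 1 or 2 of wild type or of the treated mice was left out, and Acsl4 not without any array other than wild-type replicate 3, with adjusted p of at most 0.086 and 0.144 by limma. Between enarodustat and ob/ob vehicle none of these genes was called. The smallest p values in them were those of Acss1, a mitochondrial acetyl-CoA synthetase (1.84 ± 0.41), and Fabp3 (2.72 ± 0.75), and the muscle isoform Cpt1b was 1.44 ± 0.51 higher (adjusted p = 0.597, 0.683 and 0.708 by limma). Distal nephron markers had a median change of 2.06 in the same comparison, with all 19 tested above 0. The part of distal nephron RNA in the changes of Acss1, Fabp3 and Cpt1b was not tested.

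Markers of other cells moved beside these genes. Over all features 4.89% were called higher and 2.66% lower in ob/ob vehicle against wild type. In ob/ob enarodustat against wild type 6.1% were called higher. Of 21 tested monocyte and macrophage markers 14 were called higher in ob/ob vehicle than in wild type. Their summed level was 71.9 to 80.0 in wild type, 125 to 129 in ob/ob vehicle and 92.7 to 115 in ob/ob enarodustat. These cells also express Fabp4, Fabp5, Pparg and Nr1h3, but whether they or other cells gave the changes of those genes was not tested. Of 28 podocyte markers 13 were called lower, with a summed level of 1590 to 1720, 1110 to 1370 and 928 to 1210. Of 20 glomerular endothelial markers 5 were called higher and 1 lower, with sums of 686 to 744, 841 to 915 and 824 to 908. Adipocyte markers had 6 of 11 genes tested and none called, with sums of 12.1 to 21.3, 20.2 to 33.9 and 16.7 to 17.0. Most of each sum was Lpl, the brightest of the 6 on every array. In ob/ob vehicle against wild type 5 of the 6 lay below 0 and 1 above, with a median change of -0.1. The 19 distal nephron markers tested all lay above 0 in enarodustat against ob/ob vehicle, none called, with sums of 11.3 to 136, 8.01 to 59.1 and 115 to 232. Of 14 mesangial markers 3 were called higher in ob/ob vehicle, with sums of 259 to 433, 635 to 698 and 544 to 641, and of 7 erythrocyte markers tested 6 were called higher in ob/ob enarodustat than in wild type, with sums of 13.7 to 59.4, 48.3 to 118 and 85.7 to 463. What part these cells had in the values of the oxidation genes was not tested.

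**Figure D5:**
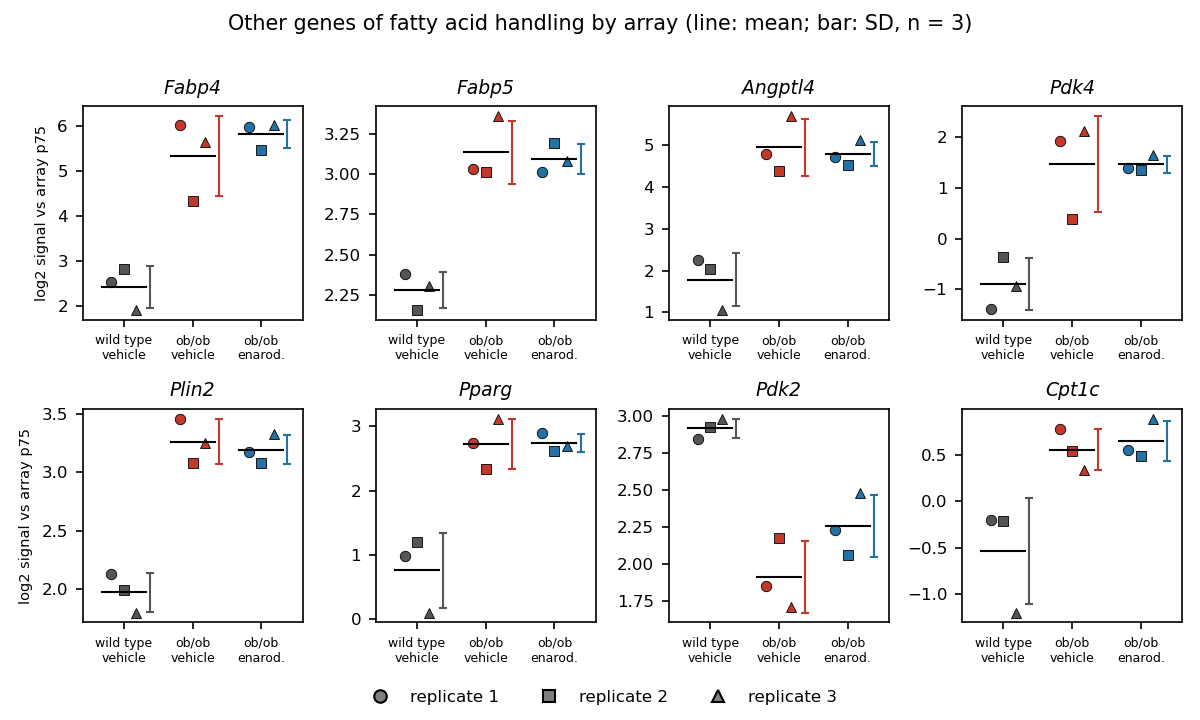
Log2 signal minus the array's 75th percentile for 8 other genes of fatty acid handling, 1 point an array, a line at each group mean and a bar of 1 SD (n = 3), each panel on its own scale. For all 8 the wild-type arrays lie apart from both ob/ob groups, as for Fabp4 at 1.92 to 2.83 in wild type and 4.33 to 6.03 in the ob/ob arrays.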

How the data were processed

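Total RNA of glomeruli was labelled with Cy3 and hybridised to Agilent arrays, per the labels' protocols. The authors' deposited scanner files hold spot intensity on a linear scale, background-subtracted and, per the file headers, extracted with version 11.5.1.1 of Agilent's software, with probe positions in mm9. The submitters' processing notes also name limma. The deposited table of log2 values, used as an alternative, matched log2 intensity minus about the 75th percentile of each array, and its column medians were -3.10 to -2.93.

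Here, log2 processed signal minus the array's 75th percentile was used. Controls and outlier spots were left out, and spots of a probe averaged. Probes had to be well above background on all arrays of 1 group or more, and genes took their brightest probe. Names came from RefSeq tables (GRCm38.p6). A model of 3 groups was fitted to 9 arrays over 24150 features with limma 3.58.1 in R 4.3.3 (data.table package, version 1.17.8), with Benjamini-Hochberg adjustment and calls at an adjusted p under 0.05. Sequences and figures used Python 3.11.15, pandas 2.3.3 and matplotlib 3.10.9. The fit was tested on simulated data. The precision is limited by 3 arrays a group.

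The 31 genes and all other lists were chosen with earlier results of these data known. Array values are given for genes called in any comparison, the 3 smallest p values of each comparison, the 3 widest ranges and 8 anchors (Cpt1a, Acadm, Hadha, Ppara, Ppargc1a, Cyp4a10, Cyp4a14, Ucp2), and Ucp3 was added after its values were seen. From the pathway lists the called genes and at most 4 by smallest p are named. The 23 alternatives covered normalization, dim probes, probe choice, groups in the fit, blocks, a tubule covariate, array weights and arrays left out.
Some results are not reported here.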

Additional observations from a re-analysis of the deposited data

How the results depend on the processing

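Of the 31 genes, the count called in ob/ob vehicle against wild type was 2, and it moved with many settings. It was 1 with the array median or the mean of the kept probes, and 0 with no filter on dim probes, with only the 2 groups compared, with the tubule covariate and with wild-type replicate 3 and enarodustat replicate 2 both left out. With array weights it was 7 (Acaa2, Cpt1a, Ech1 and Slc25a20 higher, Cpt2, Ppargc1a and Ppargc1b lower). Leaving out 1 array gave 0 to 2. With quantile normalization, the deposited log2 table, probes above background on all 9 arrays, every probe as a feature or the slide as a block it was 2, and with normexp 3, Ppargc1b being added. Over all features the count of 1823 became 634 with the tubule covariate, 1005 with no filter on dim probes, 4181 with array weights and 916 to 1774 without single arrays. The cause of these shifts was not tested.

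For enarodustat against wild type the count of 3 became 1 (Cpt1a) with both those arrays left out, stayed at 2 to 4 in the other settings, and was 2 to 4 without single arrays. Over all features 2460 became 1227 with no filter, 4528 with array weights, 1365 with the slide as a block, 1292 with both arrays left out and 1215 to 2163 without single arrays. For enarodustat against ob/ob vehicle no feature was called in any of the 23 settings. In the comparison where each was called, none of the genes called among the 31 changed sign in any setting. No other scaling moved the median of all features by more than 0.07.

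The replicate numbers were also tried as a replicate block, which gave 0 called genes of the 31 in ob/ob vehicle against wild type and 3 in enarodustat against wild type. Over all 24150 features it called 1408 and 1954. The labels state no pairing. After the group means were taken off, correlations of same-numbered arrays ran from -0.308 to 0.272. Arrays with different numbers were not set beside them, so these values cannot decide whether the samples were paired. The slide block puts enarodustat replicate 3, the 1 array on another slide, in a block of its own. It therefore repeats the fit without that array. The scan date divides the arrays as the slide does and was not run.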
